A study of Mus musculus with 6 samples.

Results

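The 10 genes studied were those of mechanosensitive and calcium entry channels, measured in CD8 T cells sorted from mouse spleen: Piezo1, Trpv2, Trpm7, Tmem63a, Orai1, Stim1, Stim2, Kcnn4, Kcna3 and Panx1. They were chosen by name, as candidate sensors of ultrasound in T cells and the calcium entry machinery behind them. No measured value enters the rule, but it was written with earlier results of these data known. All 10 were found among the 17744 genes of the deposited table, and all 10 were among the 10655 genes that entered the test. The study compared 3 control libraries, labelled wild type and untreated, with 3 libraries labelled as irradiated with focused ultrasound, which is sound concentrated on a target, here called ultrasound 1, 2 and 3. The series title names the spleen as the target. The genotype field of the ultrasound samples repeats the treatment, and the strain, age, dose and interval after treatment are not given in the sources used here. Cells were sorted as CD45+ CD3+ CD8a+. The labels do not say that the libraries of a group came from separate animals, so p-values measure only the spread between these samples, which may be technical.

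PIEZO1 is an ion channel that opens when the membrane is stretched and lets calcium and other cations in. TRPV2 and TRPM7 are cation channels of the TRP family, TRPM7 with a kinase domain of its own, and TMEM63A belongs to the OSCA family of stretch-gated channels. In T cells the main route of calcium entry is store-operated: when the T cell receptor empties the endoplasmic reticulum of calcium, the sensors STIM1 and STIM2 open the plasma membrane pore ORAI1. The potassium channels KCNN4, which calcium opens, and KCNA3, which voltage opens, let potassium out and so keep the electrical force that draws calcium in. PANX1 forms a large-pore channel that releases ATP.

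The 3 members with the smallest p in the comparison were Orai1, Piezo1 and Kcna3, and the 250 bases before their starts are shown so that the sequence beside these values can be read. Sequences are from RefSeq on GRCm38.p6, 5′ to 3′ on the gene's strand: Orai1 at chr5:123014824-123015073 on the plus strand, Piezo1 at chr8:122551330-122551579 on the minus strand and Kcna3 at chr3:107035912-107036161 on the plus strand. Capitals mark every match, on either strand, to a GC box (GGGCGG), an NFAT core (GGAAA), an AP-1 element (TGANTCA), a CRE (TGACGTCA) or a TATA box (TATAAA).
Orai1: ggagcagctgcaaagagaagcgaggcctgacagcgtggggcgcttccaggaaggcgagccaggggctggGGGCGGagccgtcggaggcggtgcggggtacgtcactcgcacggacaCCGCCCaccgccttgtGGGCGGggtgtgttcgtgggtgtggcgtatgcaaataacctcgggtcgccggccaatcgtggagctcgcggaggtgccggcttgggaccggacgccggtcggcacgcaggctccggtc
Piezo1: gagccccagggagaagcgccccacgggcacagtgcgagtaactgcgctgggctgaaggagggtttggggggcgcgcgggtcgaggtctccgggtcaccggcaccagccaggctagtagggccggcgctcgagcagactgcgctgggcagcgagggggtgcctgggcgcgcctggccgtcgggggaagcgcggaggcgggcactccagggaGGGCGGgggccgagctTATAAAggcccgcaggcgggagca
Kcna3: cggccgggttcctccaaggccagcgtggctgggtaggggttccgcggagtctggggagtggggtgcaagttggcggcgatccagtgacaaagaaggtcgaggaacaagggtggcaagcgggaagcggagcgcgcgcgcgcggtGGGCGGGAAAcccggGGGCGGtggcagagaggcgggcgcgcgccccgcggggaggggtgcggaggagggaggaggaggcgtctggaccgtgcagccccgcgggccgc
Orai1 held 3 GC boxes, Piezo1 held 1 GC box and 1 TATA box, and Kcna3 held 2 GC boxes, one of them overlapping its single NFAT core. Over all 10 members the GC box was present in 7, against 32.9% of 27025 promoter windows of the same length. Member windows were 53.2% to 78.4% G and C, against a median of 52% over all windows, and those of Tmem63a, Kcnn4 and Stim1 lie within or across the start of the gene span given here. The NFAT core was present in 3 of 10 (Trpm7, Kcna3 and Panx1), against 55.6% of all windows. AP-1 and CRE letters were in none of the 10 windows, and in 6.87% and 1.62% of all windows, while the TATA box was in 1 of 10 and 13% of all. These matches describe letters only, since binding and chromatin were not measured.

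Levels are given in FPKM, fragment counts scaled by gene length and library depth, which allows genes to be compared per length. Depth was even, at 35024080 to 38113103 reads per library recovered from the deposited values, and the members rested on 519 (Kcna3 in ultrasound 3) to 8078 reads (Piezo1 in ultrasound 3). The libraries of the ultrasound group did not lie together. On the first component of the tested genes, with 70.8% of the variance, scores ran from -28.60 to -15.81 among controls and were -0.53, 33.22 and 39.71 in ultrasound 1, 2 and 3. The mitochondrial share of reads was 0.954% and 0.937% in ultrasound 2 and 3 and 2.05% to 2.70% in the other 4 libraries. No batch is named in the labels, and results are therefore also given for ultrasound 1 alone and without it. The fit for ultrasound 1 alone sets a single library against the controls, with the spread taken from the other libraries, so its p-values assume that this library varies like them.

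All 6 sorting markers (Ptprc, Cd3d, Cd3e, Cd3g, Cd8a and Cd8b1) were present, with a summed level of 2089 to 2181 FPKM in controls and 1808 to 2112 in ultrasound libraries. Markers of other cells were also present, and none of the lists was at 0. The summed level of 10 macrophage and monocyte markers was 368 to 810 FPKM in controls and 1916 to 3333 in ultrasound libraries, with the 3 ultrasound libraries above the 3 controls for 8 of 10. That of 10 neutrophil markers was 189 to 578 FPKM in controls, 2326 in ultrasound 1 and 652 and 687 in ultrasound 2 and 3, with 9 of 10 higher in that way. Of all tested genes 25.9% were higher in that way, and 4 of 10 markers in each of these lists passed the limma test described below. The summed level of 10 B cell markers was 241 to 373 FPKM in controls and 180 in ultrasound 1, against 939 and 823 in ultrasound 2 and 3. Dendritic cell markers were likewise highest in ultrasound 2 and 3, at 17.5 to 37.0 FPKM in controls, 21.7 in ultrasound 1 and 63.1 and 57.5 in ultrasound 2 and 3. Summed platelet, CD4 T cell and erythroid markers overlapped between the groups. The NK cell sum overlapped too, and its markers did not move together. Most of the sum was Eomes, which lay below all controls in each ultrasound library and did not pass (log2 change -0.52, limma adjusted p 0.110). Klrb1c rose (log2 change 1.70, limma adjusted p 0.0297). Ncr1 was at 0.133 to 0.228 FPKM in controls and 0.533, 5.85 and 5.05 in ultrasound 1, 2 and 3. Klra8 and Klra4 overlapped between the groups, with ultrasound 1 within the controls and ultrasound 2 and 3 above them. In bulk RNA, fewer cells of a type and less RNA per cell cannot be told apart.

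**Figure D1:**
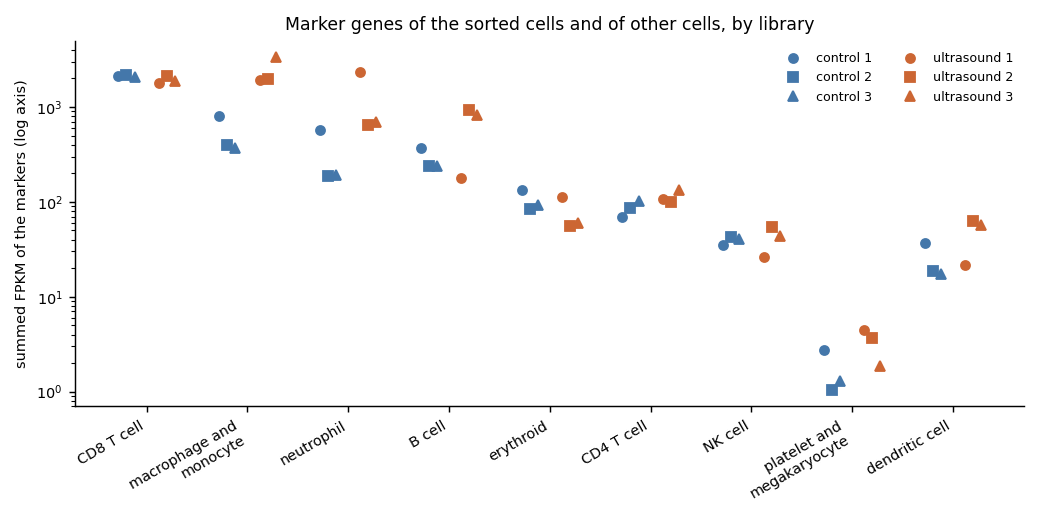
Summed FPKM of marker genes (log axis) for the sorted cells and 8 other cell types; each point is 1 library. Ultrasound 1 is low for B cell markers (180) and high for neutrophil markers (2326), and macrophage and monocyte markers are higher in all 3 ultrasound libraries than in the controls.

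In the controls the most abundant member per length was Kcnn4, at 71.0 ± 8.49 FPKM (SD, n = 3), which lay at the 92.6th percentile of the tested genes. Trpv2 followed at 26.5 ± 1.98, Panx1 at 23.0 ± 1.69, Trpm7 at 18.3 ± 1.79 and Stim1 at 18.0 ± 1.74 FPKM. Piezo1 lay at 16.5 ± 1.23, Kcna3 at 15.4 ± 1.91 and Stim2 at 13.1 ± 0.516 FPKM. Orai1, at 11.1 ± 0.895, and Tmem63a, at 9.07 ± 0.863 FPKM, were the lowest, near the middle of all tested genes (53.0th and 46.9th percentile). The ranges of Trpv2 and Panx1 overlapped, as did those of Trpm7 and Stim1, Stim1 and Piezo1, and Piezo1 and Kcna3. Within each control library Stim1 still lay above Piezo1, while the order of the other overlapping pairs varied between controls. The remaining neighbours did not overlap, Orai1 and Tmem63a by the narrowest margin (lowest and highest control value 10.10 and 10.06 FPKM). In the means of the ultrasound libraries the order changed below the first 3 genes. Piezo1 took the fourth place at 21.8 ± 1.70 FPKM and Orai1 the sixth, after the ninth in controls, at 17.2 ± 1.53, while Kcna3 came last at 9.33 ± 2.53 FPKM (SD, n = 3). The ranges of Piezo1 and Stim1 overlapped there, as did those of Kcna3 and Tmem63a. The order also differed in ultrasound 1. There Trpm7 (20.5 FPKM) lay above Piezo1 (20.2), and Kcna3 (12.0) lay above Stim2 (11.7) and Tmem63a (8.57).

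**Figure D2:**
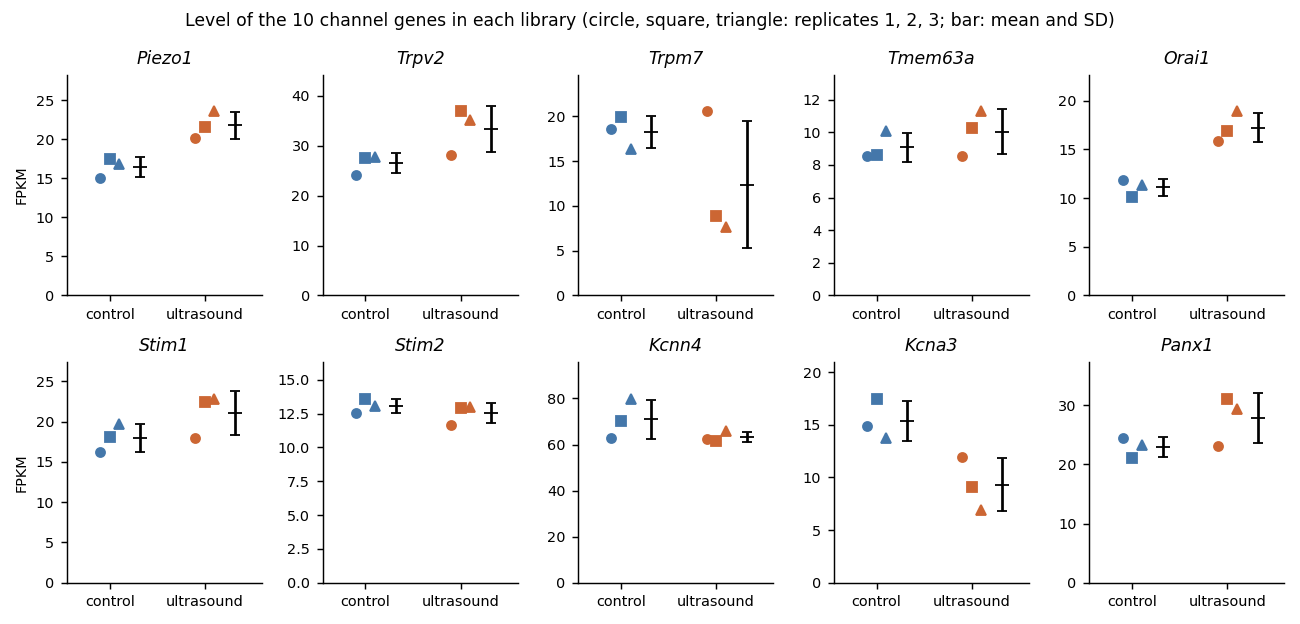
FPKM of the 10 channel genes in each library (control blue, ultrasound orange; circle, square and triangle are replicates 1, 2 and 3; bars are the mean and SD of 3 libraries). Orai1, Piezo1, Trpv2 and Kcna3 have no overlap between groups, and Trpm7 is at 20.5 in ultrasound 1 against 8.90 and 7.66 in ultrasound 2 and 3.

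The comparison asked whether these channels differed between ultrasound and control libraries. Of the 10 members, 1 passed the test and it was higher: Orai1. The test was limma on log2(FPKM + 1), with p-values adjusted over all tested genes by Benjamini-Hochberg and a threshold of 0.05, and it called 6.55% of the tested genes higher and 1.56% lower. Over all tested genes 864 passed, 698 higher and 166 lower, and with median-of-ratios size factors 442 passed, 303 higher and 139 lower. The 3 members Piezo1, Trpv2 and Orai1 lay above all 3 controls in each ultrasound library, and Kcna3 lay below them. Of all tested genes 25.9% were higher and 8.96% lower in that way, so these shares of the members, with 10 genes in all, are near the background. The median log2 change of the members was 0.17, against 0.09 over all tested genes. An unadjusted p under 0.05 was reached by 4 of 10 members and by 31.2% of all tested genes.

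Among the candidate sensors, Piezo1 had 15.1, 17.5 and 16.8 FPKM in control 1, 2 and 3 and 20.2, 21.6 and 23.6 in ultrasound 1, 2 and 3. Every ultrasound library lay above every control. The limma change was 0.38 on the log2 scale with a standard error of 0.10 and an adjusted p of 0.0601, which misses the threshold (95% interval 0.15 to 0.62). The RefSeq span of Piezo1 (NCBI Gene 234839, chr8:122481698-122551329 on GRCm38.p6) overlaps those of Ctu2 and Gm26497. Whether counting used strand is not given in the sources used here, so reads of these genes cannot be told apart in the overlap.

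Trpv2, a cation channel of leukocytes (NCBI Gene 22368, chr11:62574486-62600305), had 24.2, 27.6 and 27.6 FPKM in control 1, 2 and 3 and 28.1, 36.9 and 35.1 in ultrasound 1, 2 and 3. Ultrasound 1 lay just above the highest control, and ultrasound 2 and 3 lay well above it. The limma change was 0.32 (standard error 0.12, adjusted p 0.143). Tmem63a (NCBI Gene 208795, chr1:180942286-180975106) had 8.52, 8.62 and 10.1 FPKM in control 1, 2 and 3 and 8.57, 10.2 and 11.3 in ultrasound 1, 2 and 3, and the groups overlapped (limma change 0.13, interval -0.17 to 0.42, adjusted p 0.488).

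Trpm7 (NCBI Gene 58800, chr2:126791558-126876261) split the ultrasound group. It had 18.5, 19.9 and 16.4 FPKM in the controls, 20.5 in ultrasound 1, and 8.90 and 7.66 in ultrasound 2 and 3. Ultrasound 1 was thus above every control and the other ultrasound libraries below every one, a pattern that 9.03% of tested genes also had. With all libraries the limma change was -0.65 (standard error 0.33, adjusted p 0.219). Without ultrasound 1 it was -1.05 (limma adjusted p 0.000508), and for ultrasound 1, a single library, against the controls it was 0.17. The ultrasound libraries thus lay on both sides of the controls, and mitochondrial and B cell transcripts differ between the same libraries. Their part in the result was not tested.

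In store-operated entry the pore gene Orai1 (NCBI Gene 109305, chr5:123015074-123030452) had 11.8, 10.1 and 11.4 FPKM in control 1, 2 and 3 and 15.9, 16.9 and 18.9 in ultrasound 1, 2 and 3. These values rest on 888 to 1809 reads per library. All 3 ultrasound libraries lay above all controls, and the lowest of them exceeded the highest control by more than the range of the controls. The rise was 0.59 on the log2 scale (standard error 0.10, limma adjusted p 0.0311), and 1.55-fold between the mean FPKM of the groups. Ultrasound 1, a single library, lay 0.49 above the control mean on the log2 scale. In the authors' deposited table the log2 fold change of Orai1 is 0.51 with q 0.00684, and q is under 0.05 for 2 of 10 members (Orai1 and Kcna3) and 12.3% of its genes.

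The call of Orai1 was lost without control 2, control 3, ultrasound 2 or ultrasound 3, with limma adjusted p of 0.160, 0.145, 0.0971 and 0.113, while its log2 change stayed between 0.53 and 0.65 when any library was left out. In those 4 fits no gene of the whole table passed, with 1913 to 2137 genes at an unadjusted p under 0.05. With median-of-ratios size factors the change was 0.50 and the limma adjusted p 0.0506. Macrophage and monocyte markers and neutrophil markers were higher in the same 3 libraries (8 and 9 of 10 above all controls, against 25.9% of all tested genes). Their part in the level of Orai1 was not tested.

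The sensor Stim1 (NCBI Gene 20866, chr7:102261514-102437319) had 16.2, 18.1 and 19.7 FPKM in control 1, 2 and 3 and 18.0, 22.5 and 22.8 in ultrasound 1, 2 and 3. Ultrasound 1 lay within the controls and ultrasound 2 and 3 above them (limma change 0.22, adjusted p 0.263). The spans of Stim1 and Stim2 overlap those of Gm18255 and Gm52846, with the same limit on reads in the overlap as for Piezo1. Stim2 (NCBI Gene 116873, chr5:53998523-54121057), the sensor of smaller losses of store calcium, had 12.6, 13.6 and 13.0 FPKM in control 1, 2 and 3 and 11.7, 12.9 and 13.0 in ultrasound libraries. It had the smallest change of the members, -0.06 by limma, with a 95% interval from -0.27 to 0.15 (adjusted p 0.655). The ratio of Stim1 to Stim2 FPKM was 1.29, 1.33 and 1.51 across control libraries and 1.54, 1.74 and 1.76 in ultrasound libraries. The groups did not overlap in this ratio, and it was chosen after the values were seen and was not tested.

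The other pores were read for comparison. Orai2 was the most abundant ORAI transcript per length, at 39.4, 45.6 and 49.0 FPKM in controls and 43.1, 39.0 and 39.0 in ultrasound libraries, and did not pass (limma change -0.14, adjusted p 0.383). Orai3 had 8.84, 7.72 and 7.21 FPKM in controls and 10.1, 18.1 and 17.4 in ultrasound libraries (limma change 0.82, adjusted p 0.0640). As a share of the summed FPKM of the 3 pores, Orai1 was 19.7%, 15.9% and 16.8% in controls and 23.0%, 22.8% and 25.1% in ultrasound libraries. Orai2 was 65.6% to 72.5% of the sum in controls and 51.8% to 62.3% in ultrasound libraries. Orai3 was 14.7%, 12.2% and 10.7% in controls and 14.6%, 24.5% and 23.1% in ultrasound 1, 2 and 3. The shares of Orai1 and Orai2 did not overlap between the groups and that of Orai3 did, and shares within a library do not depend on how libraries are scaled. These shares are descriptions chosen after the values were seen, with no test.

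**Figure D3:**
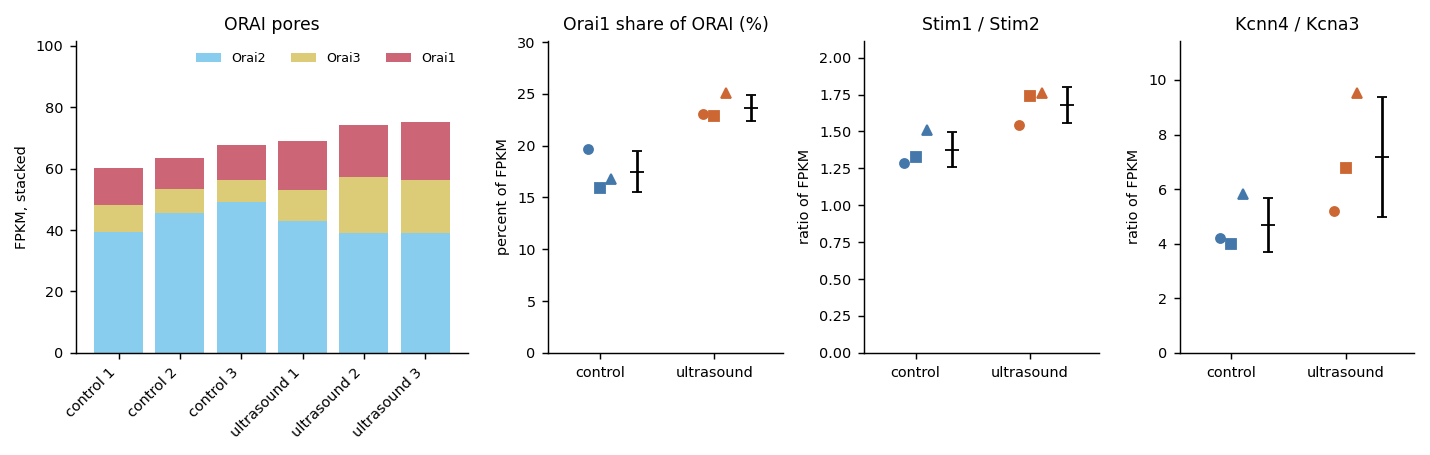
Left: stacked FPKM of Orai2, Orai3 and Orai1 in each library. Right: Orai1 as a percent of that sum, and the ratios Stim1 to Stim2 and Kcnn4 to Kcna3 per library with mean and SD (n = 3). The Orai1 share is 15.9% to 19.7% in controls and 22.8% to 25.1% in ultrasound libraries.

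The potassium channels Kcna3 and Kcnn4 both had changes below 0, and neither passed. Kcna3, the voltage-gated channel of T cells (NCBI Gene 16491, chr3:107036162-107038129), had 14.9, 17.5 and 13.8 FPKM in control 1, 2 and 3 and 12.0, 9.09 and 6.92 in ultrasound 1, 2 and 3. Every ultrasound library lay below every control, ultrasound 1 least. The limma change was -0.69 (standard error 0.19, adjusted p 0.0701, 95% interval -1.14 to -0.24), so the difference misses the threshold here, while the authors' deposited table gives Kcna3 a log2 fold change of -0.85 with q 0.00619. Ultrasound 1, a single library, against the controls gave -0.33, and without ultrasound 1 the change was -0.87 (limma adjusted p 0.00241).

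Kcnn4, the calcium-activated channel (NCBI Gene 16534, chr7:24369826-24385212), had 63.0, 70.0 and 79.9 FPKM in control 1, 2 and 3 and 62.4, 61.7 and 65.9 in ultrasound libraries. The groups overlapped, and the spread of the controls was wider than that of the ultrasound libraries (limma change -0.16, 95% interval -0.41 to 0.10, adjusted p 0.333). Kcnn4 was 4.23, 4.0 and 5.81 times as high as Kcna3 in controls, per length, and 5.22, 6.78 and 9.53 times in ultrasound 1, 2 and 3. These ratios overlapped between the groups through ultrasound 1 and control 3.

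Panx1 (NCBI Gene 55991, chr9:15005785-15045478) had 24.5, 21.2 and 23.3 FPKM in control 1, 2 and 3 and 23.1, 31.1 and 29.4 in ultrasound 1, 2 and 3. Ultrasound 1 lay within the controls (limma change for it alone 0.0080), and ultrasound 2 and 3 lay above them. With all libraries the change was 0.26 (standard error 0.13, limma adjusted p 0.215).

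The members thus fell into those whose values in ultrasound 1 lay outside the controls on the same side as ultrasound 2 and 3 (Piezo1, Trpv2, Orai1 and Kcna3) and the other 6, in which at least 1 ultrasound library lay within the controls or on their other side. Without ultrasound 1, 7 of 10 members passed: Piezo1, Trpv2, Orai1, Stim1 and Panx1 rose by 0.43, 0.43, 0.65, 0.32 and 0.38, and Trpm7 and Kcna3 fell by 1.05 and 0.87 (log2 scale, limma adjusted p = 0.000508 and 0.00241). In that fit limma called 33.8% of tested genes higher and 19.9% lower, against which 5 and 2 of 10 are to be read. For ultrasound 1, a single library, against the controls 0 of 10 members passed, where limma called 1.41% of tested genes. The spread in that fit comes from the other libraries, so nothing is concluded from this count. Piezo1, Trpv2, Tmem63a, Orai1, Stim1 and Panx1 were highest in ultrasound 2 and 3, the libraries with the highest B cell and dendritic cell markers. The part of those cells in these levels was not tested.

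**Figure D4:**
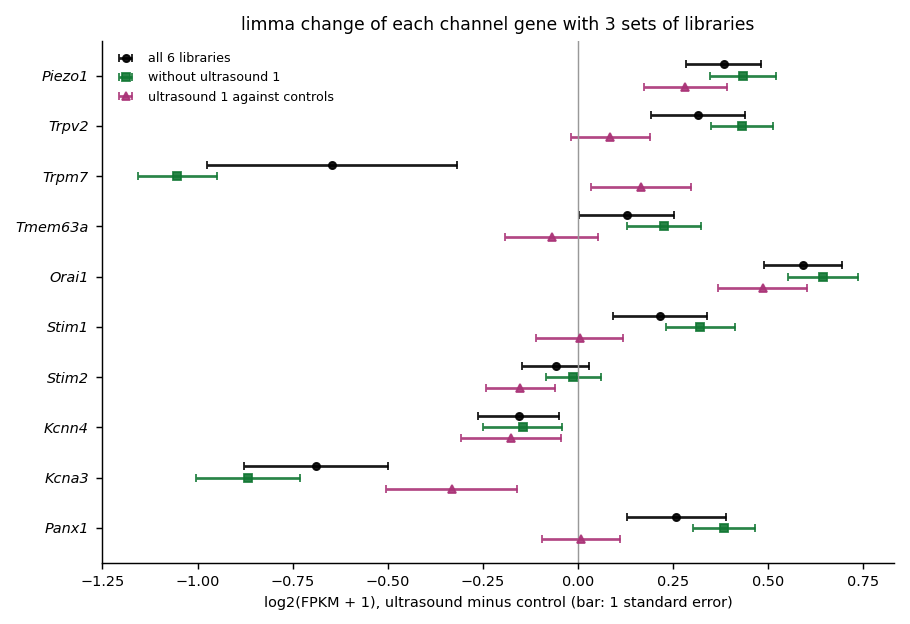
Difference in log2(FPKM + 1) between ultrasound and control libraries for each member (limma; bars are 1 standard error), with all 6 libraries, without ultrasound 1, and for ultrasound 1 against the controls. Trpm7 changes side between the last 2, from -1.05 to 0.17, and Orai1 stays between 0.49 and 0.65.

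Wider lists placed the members among related genes. Of 35 other mechanosensitive channels and relatives, 27 are listed in the table and 16 entered the test. The rest were low: 11 of the listed genes missed the minimum of 1 FPKM in 3 libraries, among them Trpc1, Pkd2, Kcnk2, Kcnk4 and Panx2. The 8 genes that are not listed, Piezo2 among them, were not analysed here. Kcnk6 and Lrrc8d passed and both were higher, and no gene passed lower. Kcnk6, a potassium channel of the two-pore family, rose from 2.40, 1.62 and 1.32 FPKM in controls to 3.22, 3.40 and 4.34 in ultrasound libraries (log2 change 0.75, limma adjusted p 0.0475). Lrrc8d, a subunit of the volume-regulated anion channel, rose from 3.96, 3.65 and 3.55 to 5.05, 6.01 and 7.13 FPKM (log2 change 0.57, limma adjusted p 0.0470). Its partner subunits did not pass: Lrrc8a had a log2 change of -0.02, Lrrc8b of 0.02 and Lrrc8c of 0.06 (limma adjusted p 0.918, 0.931 and 0.651). Tmem63b, the nearest relative of Tmem63a here, had 5.01, 5.10 and 6.37 FPKM in controls and 6.29, 7.34 and 9.24 in ultrasound libraries (log2 change 0.40, limma adjusted p 0.140). The median log2 change of the 16 genes was 0.16, and 2 of 16 calls stand against 8.11% of all tested genes.

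Of 39 other genes of calcium entry and handling, all listed, 30 entered the test, 2 were called higher and 0 lower, against 6.55% and 1.56% of all tested genes, and the median log2 change was 0.16. Mcub, which encodes an inhibitory subunit of the mitochondrial calcium uniporter, rose from 3.69, 2.86 and 3.47 FPKM in controls to 9.18, 7.50 and 11.2 in ultrasound 1, 2 and 3 (log2 change 1.24, standard error 0.16, limma adjusted p 0.0297). The pore gene Mcu had 4.43, 4.89 and 5.03 FPKM in controls and 5.0, 6.35 and 7.04 in ultrasound libraries and did not pass (limma adjusted p 0.183). Per length, Mcub lay below Mcu in every control and above it in every ultrasound library, with ratios of 0.584 to 0.833 and of 1.18 to 1.84. This ratio was chosen after the values were seen and was not tested.

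Slc8b1, the mitochondrial sodium-calcium exchanger, rose from 9.79, 6.50 and 6.24 FPKM in controls to 13.6, 15.1 and 23.3 in ultrasound libraries (log2 change 1.09, limma adjusted p 0.0426). In the store-operated group 2 of 5 tested genes lay above all controls in each ultrasound library and 2 below them, as did 4 and 0 of 7 among pumps and exchangers and 3 and 0 of 6 in mitochondrial uptake. Among the 4, Slc8a1 had 0.768, 0.388 and 0.248 FPKM in controls and 1.24, 1.02 and 1.33 in ultrasound libraries. It met the minimum of 1 FPKM only through the ultrasound group, so its lack of overlap followed from the filter. Against 25.9% and 8.96% of all tested genes, 11 (Slc8a1 among them) and 4 of the 30 genes had no overlap in these directions. Saraf, which turns store-operated entry off, was among the lower ones, at 247, 299 and 305 FPKM in controls and 200, 229 and 212 in ultrasound libraries, and it did not pass (limma change -0.40, adjusted p 0.0759). None of the 5 tested genes of receptor-driven release passed: Plcg1, Itpr1, Itpr2, Itpr3 and Itprid2 had limma changes of -0.17, 0.0025, -0.11, -0.02 and 0.29 (adjusted p 0.107 to 0.988). Itprid2 lay above all controls in each ultrasound library and had an unadjusted p of 0.0211.

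The 4 calls of the wider lists, like that of Orai1, were lost in the fits in which no gene of the whole table passed. Without control 2, control 3, ultrasound 2 or ultrasound 3 none passed, with limma adjusted p of 0.0690 to 0.193, and without control 1 Lrrc8d did not pass (0.0969). Without ultrasound 1, 8 and 19 genes of the lists passed, in a fit that called 33.8% of all tested genes higher and 19.9% lower. With median-of-ratios size factors 1 of the 4, Mcub, passed. The log2 changes of Kcnk6, Lrrc8d, Slc8b1 and Mcub were 0.63 to 0.91, 0.47 to 0.68, 0.87 to 1.28 and 1.11 to 1.37 when any library was left out, and for ultrasound 1 against the controls 0.62, 0.36, 0.80 and 1.24. Macrophage and monocyte markers and neutrophil markers were higher in the same libraries as these 4 genes, and their part was not tested.

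**Figure D5:**
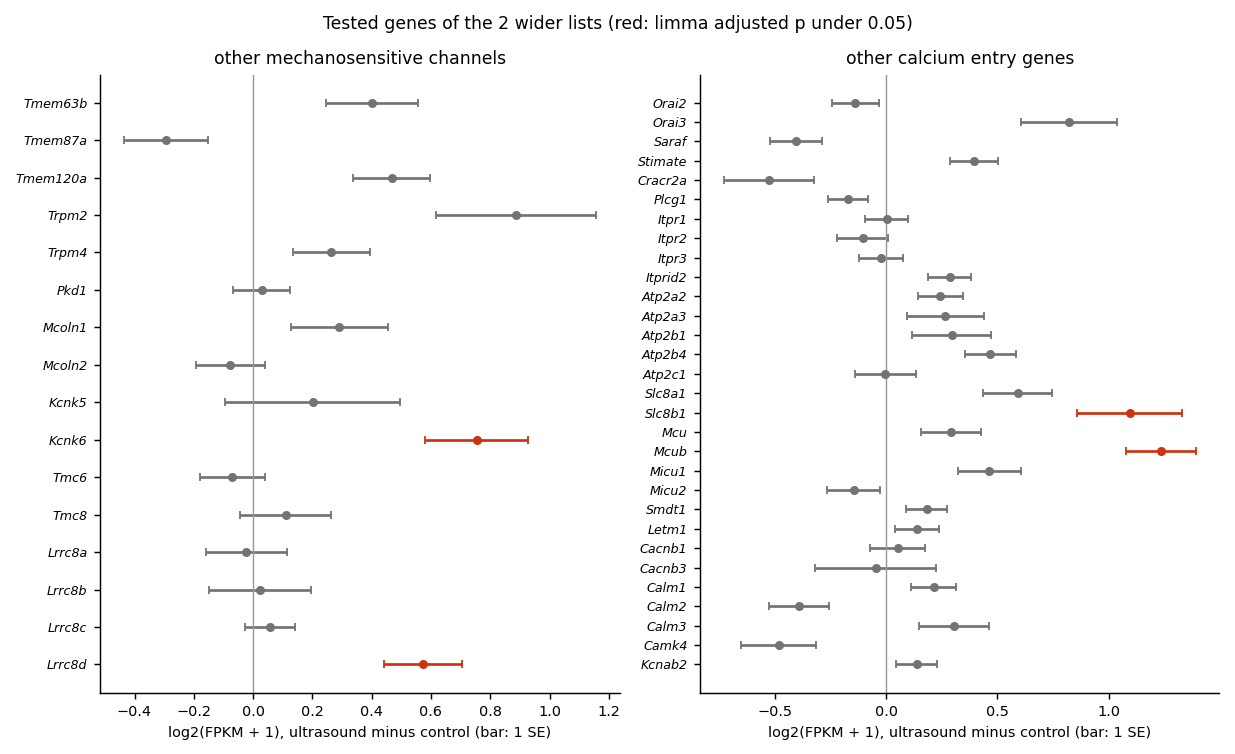
Difference in log2(FPKM + 1) between ultrasound and control libraries for the 16 tested mechanosensitive channels and relatives and the 30 tested genes of calcium entry and handling (limma; bars are 1 standard error; red marks adjusted p under 0.05). The 4 red genes, Kcnk6, Lrrc8d, Slc8b1 and Mcub, are all to the right of 0.

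Genes with the profile most like 3 of the members were found by the root mean square distance between log2(FPKM + 1) values over the 6 libraries, each profile centred on its mean. For Orai1 these were Ywhag, Tdrd7 and Tpcn2, at distances of 0.041, 0.043 and 0.046. Tpcn2 encodes a two-pore cation channel of endosomes and lysosomes, and had 3.02, 2.75 and 2.78 FPKM in controls and 4.26, 4.75 and 5.35 in ultrasound libraries. For Piezo1 they were Tgfbr3l, Inf2 and Smtn, at 0.032, 0.034 and 0.035, and for Kcnn4 Nxf1, Slfn8 and Rmnd5b, at 0.035, 0.036 and 0.039. Such likeness was common: 133, 507 and 261 tested genes lay within 0.1 of Orai1, Piezo1 and Kcnn4. Smtn had 0.583 to 0.775 FPKM in controls and 1.12 to 1.27 in ultrasound libraries, so it entered the test through the ultrasound group. At such low levels log2(FPKM + 1) understates changes, which affects its likeness to Piezo1.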

How the data were processed

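RNA from sorted splenic CD8 T cells was sequenced in 3 control and 3 ultrasound libraries, grouped by sample title. HISAT2, HTSeq, DESeq2, R 3.2.0 and the build mm10 are listed in the submitters' processing notes. The deposited table gives FPKM per library, per the file headers. It also gives, per the file headers, the authors' signal columns (mean DESeq2 normalized counts over all samples and each group), a ratio column (fold change), a log2 fold change, and p-values and q-values. A filtered subset of its rows was not used here.

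The table has no count column per library, so the planned substitute was run in R 4.3.3: limma 3.58.1, with its trend and robust options, fitted to log2(FPKM + 1) of genes with at least 1 FPKM in 3 libraries. This scale understates changes at low levels. Two-sided p-values were adjusted by Benjamini-Hochberg over 10655 genes, with a threshold of 0.05. The FPKM and mean columns obey 1 linear relation, which gave whole reads; 100% of 77579 values up to 2000 reads lay within 0.05 of a whole number. On simulated data with 200 genes changed 2-fold among 10655, 100% were called at a dispersion of 0.01 and 58.5% at 0.05, beside 15 and 6 unchanged genes. The simulation gave all genes the same dispersion and held no split like that between ultrasound 1 and the other ultrasound libraries. These rates therefore may not hold for the real libraries. Every 2 real libraries differed by more than counting noise (chi-square per degree of freedom 20.5 or more). Reads carry no molecular identifiers.

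The members and lists were chosen with earlier results of these data known. A gene of the wider lists is not reported here and is in none of the list counts. Named genes are all members, list genes past the threshold, Orai2, Orai3, Tmem63b, and the 3 nearest profiles of Piezo1, Orai1 and Kcnn4. Others named (Mcu, Saraf, Slc8a1, Plcg1, Itprid2, the Itpr and Lrrc8 genes and low channels) were picked after their values were seen. The alternatives, 14 for each result, covered scaling, pseudocount, filters, a replicate block, each library left out, a term for ultrasound 2 and 3, voom on recovered reads and the authors' table. Figures used matplotlib 3.10.9 in Python 3.11.15. Gene spans and promoters are from RefSeq tables on GRCm38.p6, the assembly of mm10; all 10 members matched by symbol and NCBI Gene identifier.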

Additional observations from a re-analysis of the deposited data

Results flagged for a closer look

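Below the minimum for the test, 12 genes of the wider lists had more than 3 reads in each ultrasound library. Of these, 7 lay above all controls in each ultrasound library. The same held for 24.5% of all genes outside the test with so many reads. The read minimum was set on the ultrasound libraries only, so genes could enter through the group in which they are high. Nothing is concluded from these counts. Pkd2, a polycystin channel, had 0.0452 FPKM or less in controls and 0.179, 0.130 and 0.104 in ultrasound 1, 2 and 3, on 8 to 21 and 52 to 83 reads. Ryr1, a calcium release channel, had at most 0.183 FPKM in controls and at least 0.263 in ultrasound libraries, and Cracr2b at most 0.193 and at least 0.272. Gja1, which encodes a connexin of gap junctions, had at most 0.0623 FPKM in controls and at least 0.0981 in ultrasound libraries, highest in ultrasound 1 at 0.372. Trpm6 had at most 0.0818 and at least 0.0888 FPKM, with 22 and 24 reads. Cacna1f and Cacnb2 rested on 5 or more and 6 or more reads per ultrasound library, with lowest levels of 0.0216 and 0.0208 FPKM against 0.0184 and 0.0104 at most in controls. None of these differences was tested.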

How the results depend on the processing

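All 10 members kept their direction under each alternative, except Trpm7 (0.17) and Tmem63a (-0.069) with a term for ultrasound 2 and 3, where the value is that of ultrasound 1 alone. Of 140 results for members, 123 kept direction and side of the threshold, 8 lost the call (all Orai1) and 7 gained one. The numbers of genes, members, other mechanosensitive channels and other calcium entry genes past the threshold were 864, 1, 2 and 2. By limma, median-of-ratios size factors gave 442, 0, 0 and 1 (3174, 3, 5 and 12 at an unadjusted p under 0.05), and a term for ultrasound 2 and 3 gave 150, 0, 0 and 1 (2352, 2, 5 and 11). No filter on low values gave 0 for each (4216, 4, 6 and 15 at an unadjusted p under 0.05). The authors' deposited table gave 2179, 2, 4 and 11, where 12.3% of all its genes had q under 0.05. Both of these settings cover 17744, 10, 27 and 39 genes, against 10655, 10, 16 and 30 in the main fit, so their counts are not over the same genes. A pseudocount of 0.1 gave 1 mechanosensitive channel, and voom on recovered reads 4 calcium entry genes. Over the 6 fits that each left out a library the counts ran from 0 to 5628 genes, 0 to 7 members, 0 to 8 mechanosensitive channels and 0 to 19 calcium entry genes; ultrasound 1 gave the highest, and 571 genes passed without control 1. The cause was not tested. With the replicate block 0 genes, 0 members, 0 mechanosensitive channels and 0 calcium entry genes passed by limma (3249, 4, 5 and 14 at an unadjusted p under 0.05). Replicate numbers gave no sign of pairing: across genes, deviations from the group means correlated between libraries of one number at -0.041, 0.051 and 0.058. The members rest on 519 to 8078 reads per library, and the effect of depth on these calls was not tested.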
